A study of Sus scrofa with 18 samples.

Results

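The endometrium of Meishan gilts was compared between gestational day (GD) 26 and GD15, the end and the middle of the peri-implantation period, with 3 arrays of each day. These 6 arrays are part of a series of 18 that measured the uterine lining of Meishan pigs, a Chinese breed with high prenatal survival, and of Yorkshire pigs on GD15, GD26 and GD50, to follow its genes through implantation and placentation. All Meishan gilts were mated to Meishan boars and received no other treatment that the labels name. Each array held a pool of RNA from 1 attachment site of each of the same 2 gilts, so the p-values measure the spread between pools of sites and not between animals. Arrays of a day are numbered as in the labels, and the numbers carry no order. Of the 24123 probe sets on the Affymetrix porcine array, 9028 were kept for description: none is a control, and each exceeded an intensity of 100 on 3 or more of the 6 arrays. Of them, 461 passed this filter through the GD26 arrays alone and 404 through the GD15 arrays alone, so that these had to differ between the days. A total of 5061 probe sets carried 1 gene symbol and stood for 4250 genes. Where several measured 1 gene, the brightest is described.

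In the pig the placenta does not invade the uterus. The trophoblast, the outer layer of the conceptus, attaches to an intact luminal epithelium, and the uterine glands feed the conceptus with a protein-rich secretion, the histotroph. Estrogen from the conceptus signals pregnancy to the mother, progesterone from the ovary maintains it, and interferons from the trophoblast act on the stroma during attachment.

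Array medians over these probe sets lay between 8.38 and 8.47 log2, and 8192 to 8389 probe sets were above an intensity of 100 on each array. Correlations across probe sets ran from 0.947 to 0.982 between arrays of a day and from 0.680 to 0.760 between days. The labelled tissue was checked on its markers. The epithelial adhesion gene EPCAM was at 13.26 to 13.62 on all 6 arrays, the stromal genes VIM and LUM at 12.57 to 13.92 and the endothelial genes CDH5 and VWF at 9.27 to 11.07, and none of these 5 passed the test between the days. Other markers of these cells did: KRT8 and KRT18 fell and KRT19 and CDH1 rose among the epithelial ones, DCN rose 1.28-fold among the stromal ones and PECAM1 2.11-fold among the endothelial ones, while the endothelial TEK did not pass. Some listed markers were not measured. The stromal COL3A1, the smooth muscle DES, the T cell markers CD3D and CD3E and the lymphocyte PTPRC lay under an intensity of 100 on all 6 arrays. The lymphocyte CD2 did not pass the filter either, but exceeded 100 on GD15 arrays 1 and 2 and on no GD26 array. Markers of the trophoblast were different: PAG6, PPAG3 and PLET1, the 3 of 8 listed trophoblast markers that were measured, had a summed intensity of 16.6 to 18.9 on the GD15 arrays and of 47942, 41255 and 30461 on GD26 arrays 1, 2 and 3. The part of trophoblast tissue in the changes described here was not tested. As these are bulk samples, fewer cells of a type and less RNA per cell cannot be told apart.

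In limma with Benjamini-Hochberg adjustment over the 9028 probe sets, 2140 (23.7%) rose and 2565 (28.4%) fell from GD15 to GD26 at an adjusted p under 0.05, while 4323 did not pass. With a change of at least 2-fold as a second condition, 1074 (11.9%) rose and 1117 (12.4%) fell. Counted as genes, 1057 of 4250 (24.9%) rose and 1068 (25.1%) fell, with a median log2 change of -0.03 over all genes. Of these genes, 176 passed the filter through the GD26 arrays alone and 131 through the GD15 arrays alone, and of the other 3943, 883 rose (22.4%) and 941 fell (23.9%). Group counts hold such members too. Where they make up more than 3 of a group, and in some groups with fewer, its counts are also given without them. All group counts are descriptions, to be read beside the 24.9% and 25.1% of all genes. The arrays of the days did not overlap in 5326 probe sets (59.0%). Large changes were more often rises: with intensities under 100 set to 100, 97 probe sets rose and 50 fell by at least 3 log2 units, and 29 rose and 5 fell by at least 5. Throughout, a gene rose or fell where it passed this test, values of single arrays are log2 intensities in the order of arrays 1, 2 and 3, a change is given with its standard error, and "at least" marks a fold for which all arrays of the dimmer day lay under an intensity of 100, which was then used in their place.

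**Figure D1:**
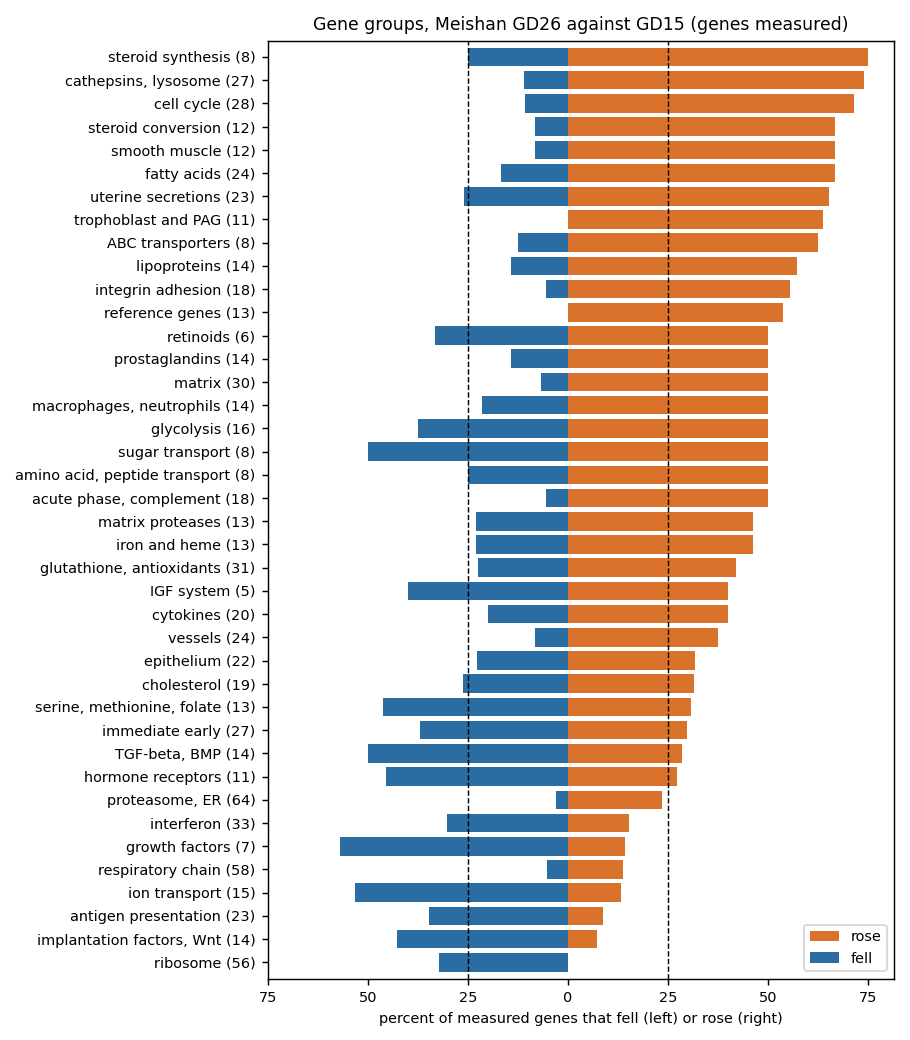
Percent of the measured genes of each group that rose (orange, right) or fell (blue, left) from GD15 to GD26 at an adjusted p under 0.05, with the number measured in brackets and dashed lines at the percent of all 4250 genes that rose (24.9) and fell (25.1); groups with fewer than 5 measured genes are not drawn. Members that passed the filter through 1 day alone are included, 5 of the 8 in steroid synthesis and 9 of the 28 in the cell cycle. The order of the bars depends on them. Without such members 73.7% of uterine secretion, 73.1% of lysosomal and 57.9% of cell cycle genes rose, against 22.4% of all such genes. In steroid synthesis 3 genes were then left, of which 2 rose. On their brightest probe sets, 0 of 56 ribosomal proteins rose.

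The largest rises were of genes of the trophoblast, of a serine protease inhibitor and of enzymes of the apical membrane. PLET1 (placenta expressed transcript) was at 2.19, 2.23 and 2.19 on GD15 and at 15.00, 14.85 and 14.37 on GD26. SERPINA3-2, a serpin of the acute phase family, was at 6.80, 8.89 and 3.72 and then at 14.73, 15.08 and 14.84. The GD15 arrays of SERPINA3-2 spread from 3.72 to 8.89, while those of PLET1 lay near the lowest value of the arrays, where little spread can show. In both genes the days did not overlap, which was a condition for choosing the genes with the largest changes. SERPINA3-2 rose 342-fold (8.42 ± 0.98, adjusted p = 7.56e-05), or 132-fold without GD15 array 3, 789-fold without GD15 array 2 and 174-fold with intensities under 100 set to 100. RNASE1, a secreted ribonuclease, was at 3.41, 4.80 and 4.81 before it reached 13.45, 13.07 and 12.25, a rise of at least 77.7-fold (adjusted p = 1.42e-07). DPP4, a peptidase of epithelial brush borders, rose from 6.94, 7.87 and 5.54 to 13.49, 13.40 and 13.25, which is 96.9-fold (6.60 ± 0.45, adjusted p = 2.23e-06), or 63.1-fold without GD15 array 3. GD15 array 3 was the lowest of its day for both SERPINA3-2 and DPP4. The drug and steroid hydroxylase CYP3A39 rose at least 63.8-fold, the membrane protein TMEM45A 60.3-fold, the water channel AQP8 62.4-fold, the chemokine CXCL14 40.1-fold and the estrogen sulfotransferase SULT1E1 58.3-fold, all with adjusted p of 4.64e-06 or less. The fold of SULT1E1, whose GD15 arrays lay mostly under an intensity of 100, was 29.5 with that floor. An uncharacterized gene, LOC100523945, was at 2.36, 2.28 and 2.23 on GD15 and at 13.06, 12.52 and 11.65 on GD26.

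Genes of retinoid, nucleoside, serine and growth factor handling led the falls. CYP26A1, which breaks down retinoic acid, was at 11.94, 11.08 and 11.43 on GD15 and at 3.28, 3.39 and 4.11 on GD26, a fall of at least 28.6-fold (adjusted p = 1.81e-08). SLC28A3, a concentrative nucleoside transporter, fell 28.5-fold from 12.35, 12.09 and 12.55 to 8.15, 6.92 and 7.42 (adjusted p = 7.46e-07). NAAA, a lysosomal amidase of fatty acid ethanolamides, fell 17.8-fold from 11.38, 10.62 and 10.58 to 6.84, 6.59 and 6.67. These 3 genes had no overlap between the days, by the rule that chose them. FGF7, a growth factor for epithelium, fell at least 15.9-fold, from 10.16, 10.36 and 11.40 to 4.07, 5.27 and 6.58 (adjusted p = 2.86e-05), and here GD26 arrays differed by more than GD15 arrays. SAL1, a salivary lipocalin of the uterine secretion, fell at least 15.4-fold, MFAP5, a microfibril protein, 13.2-fold, and METTL17, a methyltransferase-like protein of mitochondria, 11.8-fold. The uncharacterized LOC100152327 fell 16.6-fold, with GD15 array 3 at 10.60 against 13.05 and 13.13 on the other two, and 29.5-fold without that array.

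**Figure D2:**
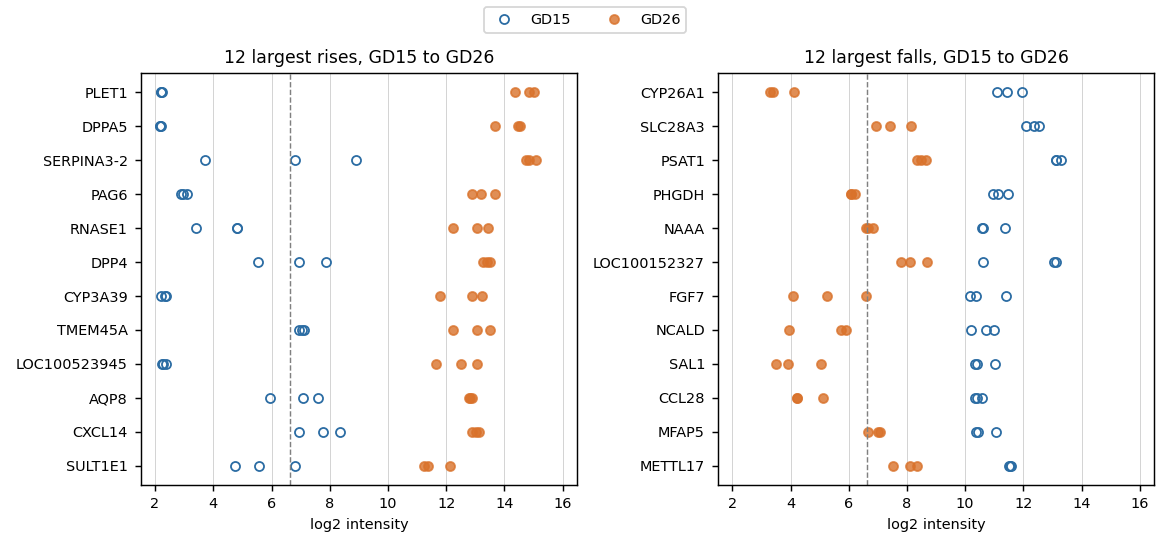
Log2 intensity of the 12 named genes with the largest rises (left) and falls (right) on each of the 3 GD15 arrays (open blue) and 3 GD26 arrays (filled orange), with a dashed line at an intensity of 100. Absence of overlap between the days was a condition for choosing these genes, and several lie at the lowest values of the arrays on one of the days.

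Of the 11 measured genes of the trophoblast group, 7 rose, 0 fell and 4 did not pass, with a median log2 change of 1.85. Among them, 5 passed the filter through GD26 alone and had to differ, and 2 of the other 6 rose. DPPA5, a gene of pluripotent cells, and the aspartic protease-like glycoproteins PAG6 and PPAG3 of the trophoblast were at 2.18 to 3.09 on GD15 and at 10.83 to 14.55 on GD26. GATA3, a transcription factor of the trophoblast and other epithelia, rose at least 4.90-fold, from 3.21, 2.80 and 3.22 to 9.57, 8.85 and 8.39. Array 1 was the highest and array 3 the lowest of GD26 in PLET1, PAG6, DPPA5 and GATA3. KRT19, a keratin of simple epithelium, rose 3.59-fold, PHLDA2, an imprinted gene of the placenta, rose 1.70-fold (0.76 ± 0.22, adjusted p = 0.0154), and the aromatase gene CYP19A3, which makes estrogen in the conceptus, was at 7.02 to 7.35 and 6.94 to 7.12 (adjusted p = 0.386).

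Of 8 measured genes of steroid synthesis, 6 rose and 2 fell, but STAR, CYP11A1, HSD3B1 and FDXR passed the filter through the GD26 arrays alone and STARD3 through the GD15 arrays alone, so that these 5 had to differ. Of the other 3, 2 rose and 1 fell. The first steps from cholesterol to progesterone were listed near the lowest values on GD15. STAR, which brings cholesterol into mitochondria, went from 2.91, 2.18 and 2.18 to 11.31, 10.78 and 9.72, at least 15.6-fold (adjusted p = 1.67e-07). CYP11A1, which cuts its side chain, rose at least 8.38-fold, and HSD3B1, which completes progesterone, at least 5.06-fold, from 2.38, 2.39 and 2.73 to 9.68, 9.13 and 8.14. Their electron carrier FDX1, which had been at 9.38 to 9.69, rose 2.84-fold and its reductase FDXR at least 1.49-fold. STAR, HSD3B1 and FDX1 were highest on GD26 array 1 and lowest on array 3, as PLET1 and PAG6 were. TSPO, a cholesterol-binding protein of the outer mitochondrial membrane, and STARD3 of late endosomes fell 1.92-fold and at least 1.27-fold, and 1 of these 2 falls was lost on leaving out any single array other than GD15 array 3.

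Enzymes that inactivate or convert steroids rose with them: 8 of 12 rose, 1 fell and 3 did not pass, and the median log2 change was 1.98. HSD17B2, which oxidizes estradiol to estrone, was at 9.20, 9.03 and 9.02 and then at 13.47, 13.61 and 13.42. It rose 21.4-fold (4.42 ± 0.13, adjusted p = 5.20e-09), with an SD of 0.10 log2 units on both days. SULT1E1, which adds sulfate to estrogens, rose from 4.76, 5.57 and 6.79 to 12.12, 11.23 and 11.37. SULT2A1, the sulfotransferase of hydroxysteroids, was already at 10.96 to 12.15 and rose 6.22-fold. Of the pair that interconverts cortisol and cortisone, HSD11B1, the activating member, rose 7.0-fold (2.81 ± 0.22) and HSD11B2, the inactivating one, 9.5-fold (3.25 ± 0.39). HSD11B2 ranged from 11.35 on GD26 array 1 to 9.39 on array 3, against 10.38 and 9.93 for HSD11B1. HSD17B12 rose 2.49-fold, HSD17B8 fell 1.85-fold, and HSD17B10 fell short of the test (adjusted p = 0.0551).

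**Figure D3:**
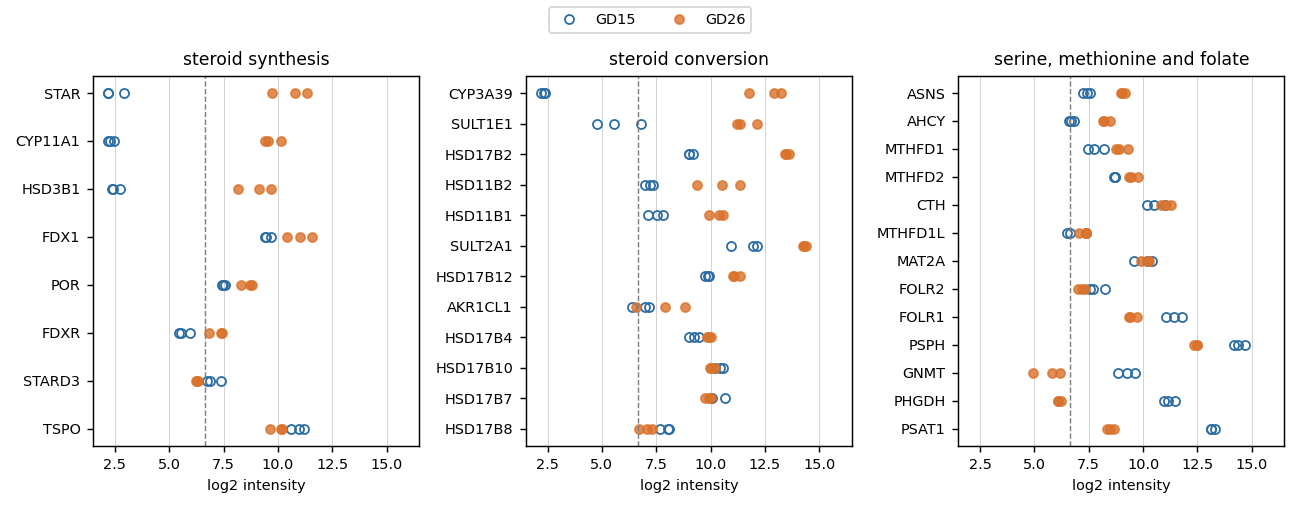
Log2 intensity on each GD15 array (open blue) and GD26 array (filled orange) of the measured genes of steroid synthesis (left), steroid conversion (middle) and serine, methionine and folate metabolism (right), with a dashed line at an intensity of 100. STAR, CYP11A1, HSD3B1 and CYP3A39 start near the bottom of the scale on GD15, while PSAT1, PHGDH and GNMT fall by several log2 units.

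Among hormone receptors and their partners, 3 of 11 rose, 5 fell and 3 did not pass, with a median log2 change of -0.50. Of the 8 that did not pass the filter through 1 day alone, 1 rose and 4 fell. PPARG, a nuclear receptor of lipids, rose at least 3.00-fold, from 4.72, 4.49 and 4.42 to 9.09, 8.56 and 7.04. FKBP5, a chaperone of steroid receptors that is itself induced by progesterone and glucocorticoids, fell 4.26-fold, from 11.03, 11.03 and 10.98 to 8.49, 8.74 and 9.54 (adjusted p = 6.68e-05). THRA, the thyroid hormone receptor, fell at least 2.28-fold, and the coactivator NCOA1 fell on all 3 of its probe sets, by 1.90-fold on the brightest. Of 6 measured retinoid genes, 3 rose and 2 fell. ALDH1A1, which makes retinoic acid, fell 3.31-fold (-1.73 ± 0.24) beside the fall of CYP26A1, while the carrier RBP4 stayed at 14.50 to 14.77 on all 6 arrays (adjusted p = 0.442).

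Serine and methionine metabolism split into parts that moved in opposite directions: 4 of 13 genes rose, 6 fell and 3 did not pass, with a median log2 change of 0.08. The 3 enzymes that make serine from a glycolytic intermediate, PHGDH, PSAT1 and PSPH, all fell. PSAT1 was at 13.29, 13.11 and 13.12 and then at 8.49, 8.64 and 8.36, a fall of 25.6-fold (-4.68 ± 0.13, adjusted p = 3.96e-09). PSPH, the last step, fell 3.92-fold and stayed bright, at 12.34 to 12.49. GNMT, which methylates glycine, fell at least 6.06-fold, from 9.27, 9.61 and 8.85 to 4.94, 5.82 and 6.16. The asparagine synthetase ASNS rose 3.16-fold, the homocysteine enzyme AHCY 3.00-fold and the folate enzymes MTHFD1 and MTHFD2 2.27-fold and 1.77-fold. The 2 probe sets of the folate receptor gene FOLR1 moved in opposite directions, with the brighter one falling 3.84-fold.

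Among proteins of the uterine secretion, 15 of 23 rose, 6 fell and 2 did not pass, with a median log2 change of 0.98. Of the 19 that did not pass the filter through 1 day alone, 14 rose and 3 fell. SPP1, or osteopontin, which binds integrins between trophoblast and uterine epithelium, was at 13.15, 13.62 and 9.98 on GD15 and at 15.33, 15.34 and 15.30 on GD26. It rose 8.41-fold (3.07 ± 0.74, adjusted p = 0.00595), with an SD of 1.98 on GD15, where array 3 lay far below the other two, and of 0.02 on GD26. The rise was 3.83-fold without GD15 array 3 and 13.5-fold without GD15 array 2. The protease inhibitors SLPI and WFDC2 rose 7.05-fold and 6.67-fold, the serpin UABP-2 rose 4.59-fold and ACP5, the iron-carrying uteroferrin, 1.88-fold, from 14.03 to 14.24 up to 14.76 to 15.22. FST, an activin-binding protein, fell at least 6.18-fold, and MUC4, a membrane mucin of the epithelial surface, fell 3.89-fold from 10.13, 9.78 and 9.78 to 7.93, 7.87 and 8.01. MUC1 did not pass (adjusted p = 0.233), at 7.24 to 7.57 and then 6.57 to 7.48.

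Lysosomal genes rose as a rule: of 27 measured, 20 rose, 3 fell and 4 did not pass, with a median log2 change of 1.03, or 0.80 with low intensities set to 100. GRN, the precursor of the granulins, rose 16-fold (4.0 ± 0.22, adjusted p = 4.69e-07) from 10.64, 10.37 and 9.92 to 14.53, 14.51 and 13.88. GLB1, the lysosomal beta-galactosidase, rose 8.96-fold, the sialidase NEU1 6.43-fold and the cathepsin CTSZ 8.86-fold, with CTSZ at 14.01 on GD26 array 1 against 12.71 and 12.45. The cathepsins CTSC, CTSH, CTSD and CTSB rose 5.69-fold, 3.47-fold, 3.30-fold and 2.24-fold, while CTSK, CTSV and CTSS did not pass. Against this, NAAA fell 17.8-fold and the acid lipase LIPA 3.45-fold. Outside the cell, the epithelial metalloproteinase MMP7 was at 5.09, 5.54 and 4.33 and then at 11.17, 11.09 and 11.14, at least 22.5-fold higher (adjusted p = 8.04e-08). The inhibitors TIMP1 and SERPINE2 rose 4.94-fold and at least 5.76-fold, and the urokinase gene PLAU 4.29-fold, whereas MMP2 fell 1.53-fold and MMP14 1.44-fold. In all, 6 of 13 genes of matrix proteolysis rose and 3 fell.

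Of 18 measured acute phase and complement genes, 9 rose, 1 fell and 8 did not pass. Without GD26 array 2, 6 of them rose, and without GD26 array 3, 7 rose. GD15 array 3 lay at least 0.5 log2 units below both other GD15 arrays in 9 of the 18 (50.0%), against 8.19% of all genes. CD55, which protects cells from complement, rose 11.2-fold (3.49 ± 0.15, adjusted p = 7.72e-08), from 8.59, 8.60 and 8.30 to 12.08, 11.76 and 12.11. Complement factor B, CFB, rose at least 3.52-fold and the terminal component C7 at least 2.79-fold, and the classical pathway genes C1QC, C1R, C1S and C4A did not pass. The gene of factor D, CFD, fell 3.65-fold. Among lipoprotein and carrier genes, 8 of 14 rose and 2 fell. LPL, which frees fatty acids from lipoproteins, rose at least 7.11-fold, the phospholipid transfer protein PLTP 4.89-fold and the endocytic receptor LRP2 3.89-fold. APOA2 was at 2.18 on all GD15 arrays and at 8.59, 8.74 and 9.18 on GD26, at least 4.57-fold higher (adjusted p = 1.16e-09), while APOA1, at 11.51 to 12.10 on all 6 arrays, did not pass.

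All 8 measured sugar transporters passed the test, 4 in each direction. SLC5A1, the sodium-glucose cotransporter, fell at least 8.15-fold, from 9.64, 9.78 and 9.59 to 3.95, 4.54 and 4.43 (adjusted p = 6.43e-07). The facilitative carriers SLC2A12 and SLC2A3 rose 8.51-fold and 6.94-fold, with SLC2A3 at 11.31, 10.87 and 10.45 on GD26, and SLC2A1, the brightest, fell 1.65-fold from 12.85 to 13.27 to 12.18 to 12.55. Of the water channels, AQP8 rose from 7.60, 7.08 and 5.94 to 12.90, 12.83 and 12.78 and AQP1 1.67-fold, while AQP11 fell 3.88-fold and AQP3 2.00-fold. Of 8 amino acid and peptide transporters, 4 rose and 2 fell. Of the 6 that did not pass the filter through 1 day alone, 2 rose and 2 fell. SLC3A1, a partner of the cystine carrier SLC7A9, rose at least 11.1-fold while SLC7A9 fell 3.98-fold, and SLC38A1, a glutamine carrier, fell 4.12-fold. SLC1A5, another glutamine carrier, rose 4.14-fold from 6.98, 7.17 and 6.75 to 9.19, 9.01 and 8.85. Ion transport moved mostly downward, with 8 of 15 genes falling and 2 rising (median log2 change -0.61), and the sodium pump subunit ATP1B1 fell 3.68-fold, from 11.92, 11.85 and 11.58 to 9.53, 10.13 and 10.06. The metal-binding MT3 fell 4.76-fold, or 3.11-fold without GD26 array 1, and the calcium channel TRPV6 stayed at 12.24 to 12.95 (adjusted p = 0.991). Of 8 ABC transporters, 5 rose, among them ABCC6 by at least 4.25-fold, and TAP1 fell 2.34-fold. Without GD26 array 2, 3 of them rose.

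In iron and heme handling 6 of 13 genes rose and 3 fell. The inducible heme oxygenase HMOX1 was at 5.74, 6.29 and 4.92 on GD15 and at 9.74, 10.03 and 10.41 on GD26, at least 10.7-fold higher (adjusted p = 2.49e-06). The constitutive HMOX2 went the other way, 2.68-fold down, from 9.35, 9.61 and 9.44 to 7.97, 8.17 and 7.98. SLC25A37, the mitochondrial iron carrier, and ALAS1, which starts heme synthesis, rose 4.52-fold and 3.33-fold. Ferritin light chain, FTL, fell 1.47-fold and its heavy chain FTH1 did not pass. HBB, a red cell marker, fell 2.14-fold in the same comparison.

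Lipid genes rose more often than they fell, with 16 of 24 fatty acid genes up and 4 down (median log2 change 0.59). ELOVL6, which lengthens long saturated fatty acids, rose 14.0-fold (3.81 ± 0.26) from 7.60, 7.51 and 6.56 to 11.21, 10.78 and 11.12. The desaturase SCD rose 4.44-fold and the fatty acid synthase FASN 2.73-fold. Of 19 cholesterol genes, 6 rose (31.6%) and 5 fell (26.3%), near the 24.9% and 25.1% of all genes, and 8 did not pass. HMGCS1, at the start of the mevalonate pathway, rose 3.14-fold and the lysosomal cholesterol exporter NPC1 2.51-fold, while FDPS and FDFT1, the steps to farnesyl diphosphate and squalene, fell 2.49-fold and 3.39-fold. FDFT1 went from 12.50, 12.43 and 12.41 to 10.90, 10.58 and 10.58 (adjusted p = 4.79e-06). CH25H, which hydroxylates cholesterol, fell 5.11-fold. In prostaglandin metabolism, 7 of 14 rose and 2 fell. The inducible cyclooxygenase PTGS2 fell 3.09-fold, from 9.84, 9.17 and 10.78 to 8.56, 8.32 and 8.04, while the constitutive PTGS1 rose at least 1.77-fold and the prostaglandin E synthase PTGES 2.49-fold. Of the carbonyl reductases, CBR1 rose at least 28.2-fold and CBR2 fell at least 2.58-fold.

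Within glycolysis, 8 of 16 genes rose and 6 fell, with isoforms moving apart. LDHA, which turns pyruvate to lactate, rose 4.05-fold from 10.69, 10.78 and 10.46 to 12.87, 12.58 and 12.54, and LDHB fell 1.75-fold. ENO1 rose 2.41-fold, PFKP fell 2.77-fold, and PDK4, which restrains pyruvate oxidation, fell 6.14-fold (-2.62 ± 0.37). Without GD26 array 1 or 2, 5 glycolysis genes rose. In the glutathione and antioxidant group, 13 of 31 rose and 7 fell, and without 4 that passed the filter through GD26 alone 9 of 27 rose. The glutathione transferase GSTA1 fell 7.49-fold, from 12.69, 12.65 and 12.43 to 9.33, 9.59 and 10.13. The 2 subunits of the enzyme that limits glutathione synthesis moved apart, with the modifier GCLM at least 4.0-fold up and the catalytic GCLC 2.42-fold down.

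Of 28 measured cell cycle genes, 20 rose, 3 fell and 5 did not pass, with a median log2 change of 1.27. Of these, 9 passed the filter through GD26 alone and had to differ, and of the other 19, 11 rose and 3 fell, with a median of 0.63. CCNB1, the mitotic cyclin, rose 8.02-fold (3.00 ± 0.21, adjusted p = 2.52e-06) from 6.67, 6.73 and 6.88 to 9.87, 9.77 and 9.65. TOP2A rose 5.94-fold, UBE2C at least 5.27-fold and the replication clamp PCNA 3.15-fold, the last from 8.18, 8.48 and 8.13 to 9.86, 9.94 and 9.96. BIRC5, DLGAP5, CCNB2 and CDC20 lay under an intensity of 100 on every GD15 array and above it on every GD26 array, with rises of at least 1.5-fold to 2.12-fold. Among the 3 that fell, CDC25B and STMN1 act in division as well (2.87-fold and 2.41-fold), and CDKN1B is an inhibitor of the cycle (1.98-fold).

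Matrix, adhesion and contractile genes rose more often than they fell. In the matrix group 15 of 30 rose and 2 fell, led by the proteoglycan VCAN, at least 4.99-fold, and by MGP, an inhibitor of calcification. MGP was at 10.79, 10.58 and 10.98 and then at 13.70, 13.36 and 11.54, a rise of 4.24-fold with GD26 array 3 far below the other two, and of 6.72-fold without it. Of 18 integrin and adhesion genes, 10 rose and 1 fell. ITGB1, the shared beta subunit, rose 1.84-fold and VCL, of focal adhesions, 2.45-fold, while ITGAV fell 1.72-fold. Of 12 smooth muscle genes, 8 rose and 1 fell, with TPM2 2.87-fold and ACTA2 2.15-fold up. Among 24 vessel genes 9 rose and 2 fell. THBS1, an inhibitor of vessel growth, rose 17.5-fold (4.13 ± 0.43) from 6.79, 7.50 and 8.89 to 11.88, 11.61 and 12.08, the leukocyte adhesion molecules ICAM1 and VCAM1 5.04-fold and 2.23-fold, and VEGFA 1.79-fold, while VEGFB fell 1.73-fold. Among 22 epithelial genes 7 rose (31.8%) and 5 fell (22.7%), near the 24.9% and 25.1% of all genes, with a median log2 change of 0.00. Without GD15 array 3, 10 rose and 8 fell. KRT8 and KRT18, the keratin pair of simple epithelium, fell 1.90-fold and 2.42-fold, and CDH1 (E-cadherin) rose 1.26-fold (0.33 ± 0.12, adjusted p = 0.0352).

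Of 7 measured growth factor genes, GRN alone rose and 4 fell, among them EGFR (2.17-fold) and MDK, or midkine (2.02-fold). In the IGF group, 2 of 5 rose and 2 fell. IGFBP6 and IGF1 passed the filter through 1 day alone and had to differ, and of the other 3, 1 rose and 1 fell. IGFBP2 rose 9.24-fold (3.21 ± 0.32) and IGFBP6 at least 2.35-fold. IGF1, the growth factor, fell at least 3.06-fold, STC1, a secreted calcium and phosphate regulator, fell 6.58-fold from 11.96, 11.94 and 11.92 to 9.39, 9.18 and 9.11, and IGF2 did not pass (adjusted p = 0.0784), with 8.40, 8.07 and 6.25 on GD26. Of 14 implantation, homeobox and Wnt genes, 1 rose and 6 fell. The homeobox gene MSX1 was at 10.19, 9.76 and 9.90 and fell 4.28-fold (-2.10 ± 0.16) to 7.73, 7.73 and 8.10. KLF9, a partner of the progesterone receptor, FOXO1 of decidual cells and FOXA2 of uterine glands fell 2.86-fold, 1.89-fold and 2.32-fold, with FOXA2 at 8.44 on GD26 array 1 against 9.89 and 10.03. In the TGF-beta and BMP group, 4 of 14 rose and 7 fell, or 4 and 4 without GD26 array 1 or 3. Of the 11 that did not pass the filter through 1 day alone, 2 rose and 6 fell. TGFBR1 rose 3.16-fold and the decoy receptor BAMBI 6.05-fold, and the corepressor TGIF1 fell 2.82-fold. Of 27 immediate early genes, 8 rose (29.6%) and 10 fell (37.0%), against 24.9% and 25.1% of all genes, with JUN 3.85-fold up and FOS 2.11-fold down.

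Of 33 genes of the interferon response, 5 rose (15.2%), 10 fell (30.3%) and 18 did not pass, against 24.9% and 25.1% of all genes, with a median log2 change of -0.23. OAS1, an antiviral synthetase, fell 5.89-fold (-2.56 ± 0.26) from 12.08, 12.22 and 11.46 to 8.83, 9.51 and 9.74. The guanylate-binding protein GBP1 was at 11.33, 11.80 and 9.68 and then at 7.88, 8.37 and 8.61, a fall of 6.26-fold (adjusted p = 8.71e-04), or 9.66-fold without GD15 array 3. The transcription factors IRF1 and IRF2 fell 2.56-fold and 2.49-fold. ISG15, a ubiquitin-like protein, was at 11.55, 11.32 and 9.09 on GD15 and at 10.77, 11.25 and 11.76 on GD26 and did not pass (adjusted p = 0.38). Of 23 antigen presentation genes, 2 rose and 8 fell, among them the class I genes SLA-2, SLA-3 and SLA-6 (1.5-fold, 1.76-fold and 1.81-fold) and the proteasome activator PSME1 (2.02-fold). IFI30, a lysosomal reductase of antigen processing, rose 3.32-fold.

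Both of these counts moved with single arrays. On GD15 array 3, 22 of the 33 interferon genes (66.7%), 13 of the 23 antigen presentation genes (56.5%) and 10 of the 14 macrophage and neutrophil genes (71.4%) lay at least 0.5 log2 units below both other GD15 arrays, against 348 of all 4250 genes (8.19%). No gene of these 3 groups lay as far above. Without GD15 array 3, 4 interferon genes rose and 16 fell, and 1 antigen presentation gene rose and 15 fell. Leaving out GD26 array 1 gave 1 rise and 3 falls in antigen presentation, and leaving out GD15 array 1 or 2 gave 4 falls. Interferon rises numbered 2 without GD15 array 2 or GD26 array 3 and 3 without GD26 array 1 or 2. The GD26 pools differed too. Array 3 was at least 0.5 above array 1 in 20 of 33 interferon genes (60.6%), against 395 of all genes (9.29%). In the opposite direction, array 1 was at least 0.5 above array 3 in 7 of 11 trophoblast genes, 5 of 8 steroid synthesis genes, 8 of 19 cholesterol genes and 4 of 8 sugar transporters, against 287 of all genes (6.75%). It was so in 131 of the 498 genes that rose at least 2-fold (26.3%), and array 3 was above array 1 by as much in 117 of the 425 that fell at least 2-fold (27.5%). These shares are descriptions of 6 pools, and the split of array 1 from array 3 was chosen after the values were seen. Of the counts of 1 or 2 in other groups, those of falls in steroid conversion, acute phase, lipoprotein, ABC transporter, smooth muscle and vessel genes and of the rise among implantation genes moved by 1 on leaving out some single arrays. What set the pools apart was not tested.

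**Figure D4:**
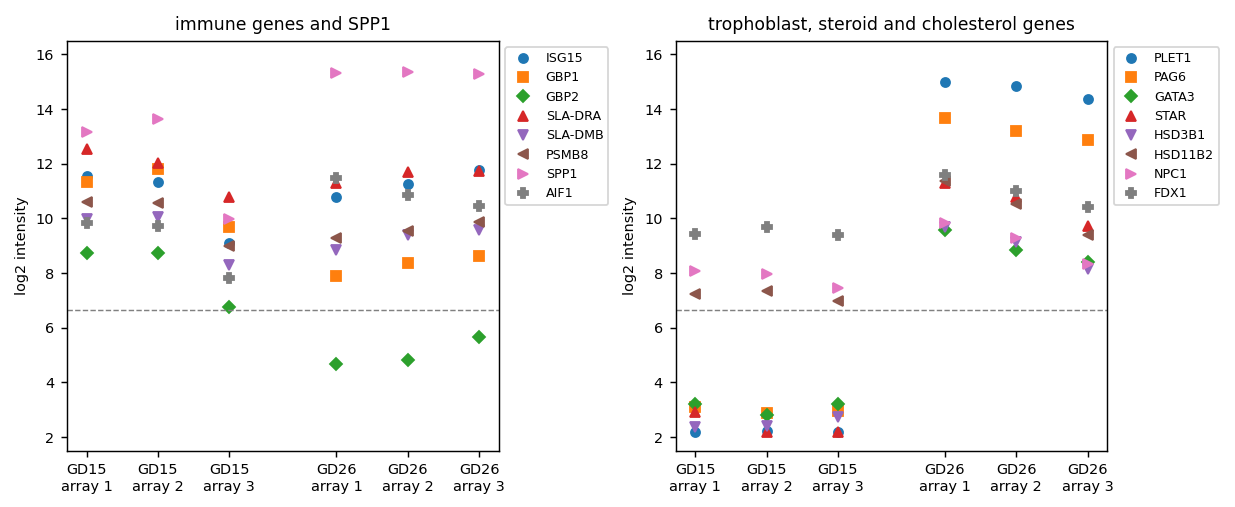
Log2 intensity on each of the 6 arrays of 8 genes of the immune response and attachment (left) and 8 genes of the trophoblast, of steroid synthesis and of cholesterol handling (right), chosen after their values were seen, with a dashed line at an intensity of 100. The immune genes and SPP1 are lowest on GD15 array 3 within their day, and the genes on the right are highest on GD26 array 1.

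Immune cell markers and signals moved in both directions. Of 14 macrophage and neutrophil markers, 7 rose and 3 fell. LAPTM5, a lysosomal protein of blood cells, rose 6.16-fold (2.62 ± 0.29) from 7.98, 8.27 and 7.08 to 10.48, 10.09 and 10.64, AIF1 of macrophages 3.49-fold (2.23-fold without GD15 array 3) and CD163, the hemoglobin scavenger, 1.80-fold, while the neutrophil protein S100A9 fell 6.50-fold. CD14 and S100A8 stayed under the filter. JCHAIN, which joins secreted antibodies, fell at least 10.4-fold from 9.92, 10.31 and 9.83 to 4.62, 5.26 and 5.11, and the mucosal chemokine CCL28 at least 13.9-fold. Among 20 cytokine and receptor genes 8 rose and 4 fell, and of the 14 that did not pass the filter through 1 day alone, 3 rose and 3 fell. The latter are 21.4% in each direction, near the 22.4% and 23.9% of all such genes. IL18 was at 6.33, 6.57 and 5.92 and then at 10.10, 10.19 and 10.07, at least 11.2-fold higher (adjusted p = 8.82e-08). IL6 was at 3.27, 2.18 and 2.28 and rose at least 6.21-fold to 9.38, 9.19 and 9.26. IL11RA, the receptor of interleukin 11, fell 10.8-fold (-3.43 ± 0.19) from 10.06, 10.64 and 10.18 to 6.63, 7.16 and 6.79.

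Genes of general cell machinery were mostly not called. Of 56 measured ribosomal proteins 0 rose and 18 fell (32.1%) on their brightest probe sets, against 24.9% and 25.1% of all genes. A dimmer probe set of RPS27 rose, and dimmer ones of some genes that fell did not pass. The median log2 change was -0.26, and the largest of these falls was 2.14-fold, for RPL31. The number that fell was 9 without GD15 array 2 or GD26 array 2 and 25 without GD15 array 3. Of 58 respiratory chain subunits 8 rose (13.8%) and 3 fell (5.2%), or 8 and 8 without GD15 array 3 and 5 and 3 without GD26 array 1. In the group of proteasome, chaperones and secretory machinery, 15 of 64 rose (23.4%), near the share of all genes, and 2 fell (3.1%). Without GD15 array 3 the counts were 18 and 8, and without GD26 array 2 they were 14 and 1. Chaperones of the endoplasmic reticulum were among both those that rose, SDF2L1 (3.37-fold), DNAJC3 (3.01-fold) and DNAJB11 (2.24-fold), and those that did not pass, HSPA5 (0.20 ± 0.16) and CALR (0.80 ± 0.32). Of 13 genes often used as references, 7 rose, with GUSB at 3.97-fold, YWHAZ at 2.04-fold and GAPDH at 1.5-fold, and 6 did not pass, or 5 rose and 1 fell without GD26 array 1. The dimmer probe sets of GAPDH did not pass.

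The change from GD15 to GD26 was set beside that of Yorkshire only to see where it differed. The Yorkshire GD26 arrays were dimmer over the same probe sets, with medians of 7.86 to 8.15 against 8.38 to 8.47 on the Meishan arrays, and their hybridization controls were brighter (11.45 to 12.91 against 9.68 to 10.92). As deposited, the change differed at 3153 probe sets (34.9%), of which 79.6% had the higher change in Meishan. After quantile normalization 51.3% of the differing probe sets were higher in Meishan, after median centring 47.7% and with low intensities set to 100 77.3%. At 1359 probe sets (15.1%) the change differed under all 4 scalings, 773 higher and 586 lower in Meishan, and the genes described as differing are among them. Their sizes are as deposited unless the floor is named. Yorkshire medians were 8.42 to 8.45 on GD15, so they dropped by GD26 while the Meishan medians did not. This drop can add to differences higher in Meishan and take from those lower in Meishan, and sizes without it are not given. All tested probe sets were kept by the filter on the 6 Meishan arrays, so those bright only in Yorkshire were left out. APOA2, IL18 and TACC1 passed it through the Meishan GD26 arrays alone and had to differ between the Meishan days. TACC1, a protein of the mitotic spindle, rose at least 3.43-fold in Meishan and had a Yorkshire change of 0.01. On GD15 it was at 4.15, 4.76 and 5.26 in Meishan and at 8.30, 7.46 and 7.78 in Yorkshire, so the breeds differed at the start. The fall of GSTA1 in Meishan stood against 12.14, 12.09 and 12.32 and then 12.23, 12 and 12.51 in Yorkshire, a difference of -2.97 ± 0.35. ALDH1A1 fell by 1.73 in Meishan and had a Yorkshire change of -0.26, and MSX1 changed by -2.10 and -0.67. APOA2 was at 2.18 on all Yorkshire arrays of both days.

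IL18 and PCNA rose more in Meishan, with log2 changes of 3.85 against 1.04 and of 1.65 against 0.62. With intensities under 100 set to 100, the breed difference was 2.50 for IL18, 1.77 for TACC1 and 2.19 for APOA2. PLTP, MYL9 of smooth muscle and SLC25A37 rose less in Meishan, by 2.29 against 6.02, 1.31 against 3.62 and 2.18 against 4.18. With the floor, the breed difference of SLC25A37 was -1.19. CD74, the invariant chain of class II antigens, fell 1.77-fold in Meishan, from 8.60, 8.86 and 7.81 to 7.18, 7.88 and 7.73, and its Yorkshire values were 9.14, 8.82 and 9.20 and then 10.81, 11.37 and 11.16. S100A9 and STC1 fell less in Meishan, with log2 changes of -2.70 against -6.63 and -2.72 against -6.01. For BMP4 the Meishan change of -0.52 did not pass (adjusted p = 0.123), and the Yorkshire change was -3.35, a difference of 2.83, or 1.25 with the floor. The trophoblast genes PLET1, DPPA5, PAG6 and PPAG3 had breed differences, as deposited, of -0.13, -0.37, -0.17 and -0.02 with adjusted p of 0.371 or more. Their sizes under the other scalings are not given, and whether they rose equally in both breeds was not tested. IGF2, listed with the trophoblast genes as well, differed by -2.82 ± 0.61 (adjusted p = 0.00285), with a Meishan change of 1.05 and a Yorkshire change of 3.87.

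**Figure D5:**
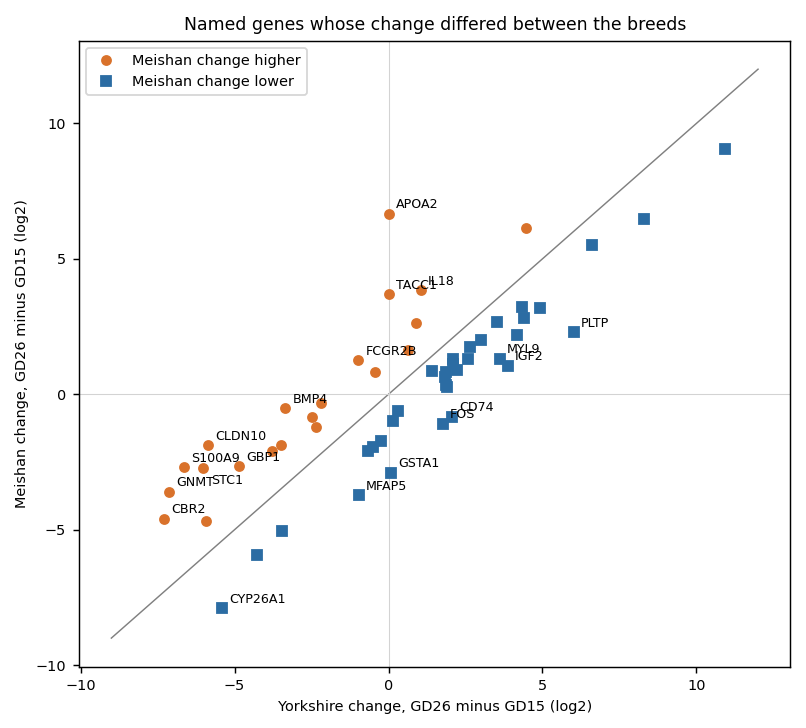
Log2 change from GD15 to GD26 in Yorkshire (horizontal) and Meishan (vertical) for the 55 named genes whose change differed between the breeds under all 4 scalings, with the line of equal change. Points above the line (orange) had the higher change in Meishan, and those farthest from it, such as APOA2, PLTP and GSTA1, are named.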

How the data were processed

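Endometrium of Meishan gilts was measured on Affymetrix porcine arrays, with 3 arrays on each of GD15, GD26 and GD50. The deposited values are log2 intensities that the authors made from the scanned arrays in R, using affy and GCRMA from Bioconductor; the submitters' processing notes also name RMA, and versions are not given in the sources used here. GCRMA puts dim probe sets at a common low value, 2.18 here, so a change from or to that level has no true size, and an intensity of 100 was used as a floor for such folds. Scanned intensities were not used.

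After removal of 124 controls, probe sets were kept that exceeded an intensity of 100 on 3 or more of the 6 arrays, and limma 3.58.1 in R 4.3.3 was fitted to the 9 Meishan arrays of all 3 days, since the study compared days within each breed with limma, with p-values adjusted over the 9028 probe sets. The breed difference was an interaction term over all 18 arrays, at the same probe sets. The fit was tested on simulated data. Tables and plots were made with Python 3.11.15, pandas 2.3.3, numpy 2.4.6 and matplotlib 3.10.9. By the platform annotation, 5061 probe sets had 1 gene symbol, 108 several and 3859 none, and only the first are named. Genes are named if they were among the 12 largest rises or falls without overlap between the days (low intensities set to 100), among the up to 5 largest called changes of a gene group, members that help to read a group, or named by the study. The comparison, the gene groups and the markers were chosen with earlier results of these data known. Alternatives were other sample sets, other filters (the study's own, 6 or more of all arrays, among them), scalings, adjustments, a replicate block and leaving out each array. The number of arrays limits the precision.

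Replicate numbers did not pair the samples: deviations of same-numbered arrays from their group means correlated at -0.06, 0.10 and 0.01.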

Additional observations from a re-analysis of the deposited data

Results flagged for a closer look

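Among the 287 named genes, 55 changed by a different amount in Meishan than in Yorkshire by limma's interaction test under all 4 scalings. The Meishan change was higher in 21 and lower in 34. Over all 9028 probe sets it was 1359 (15.1%), 773 higher and 586 lower. Named genes were chosen in part by the size of the Meishan change and by the study from these same arrays. Their number and split are therefore no result about them. All values here are the Meishan minus the Yorkshire log2 change, as deposited, and so hold the drop of the Yorkshire medians from GD15 to GD26. Groups of 3 arrays are too small for a test of single outlying arrays.

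In steroid, retinoid and prostaglandin genes, the difference was -1.82 for HSD3B1, -0.77 for HSD17B12, -0.97 for POR, 1.68 for FKBP5, -2.48 for CYP26A1, -1.47 for ALDH1A1, -1.26 for PTGES, -0.89 for PTGFRN, -1.84 for CBR1 and 2.67 for CBR2. In serine and folate metabolism it was -1.61 for PHGDH, 1.24 for PSAT1, 3.53 for GNMT and -1.43 for the brighter probe set of FOLR1. For MTHFD2 it was 1.25.

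Transport genes differed mostly downward, by -1.61 for SLC2A3, -1.13 for SLC2A5, -2.0 for SLC25A37, -1.14 for AQP3 and -0.54 for the calcium pump ATP2B1, and by 1.13 for the zinc transporter SLC39A2. Lipoprotein, lysosomal and glutathione genes differed by 6.66 for APOA2, -3.73 for PLTP, -0.83 for NEU1, -1.01 for GUSB and -2.97 for GSTA1. The mucin MUC1 differed by 1.84.

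In immune genes, the difference was 2.81 for IL18, 1.75 for LAPTM5, 2.23 for the antibody receptor FCGR2B, 3.93 for S100A9, 2.22 for GBP1, 1.65 for SLA-6, -2.89 for CD74, -1.66 for CCL28, -1.75 for CFB and 1.62 for CFD. In growth, matrix and structural genes it was 2.83 for BMP4, 3.29 for STC1, -1.11 for IGFBP2, -2.82 for IGF2, -1.03 for VEGFA, -2.85 for FOS, -1.43 for MSX1, -1.32 for the hypoxia factor EPAS1, 1.70 for MMP7, -0.92 for MMP2, -2.76 for MFAP5, 4.0 for the tight junction gene CLDN10, -1.54 for the membrane glycoprotein BSG, -2.30 for MYL9, -1.61 for the actin-binding CFL1, -1.21 for the tubulin TUBB, 1.03 for PCNA and 3.69 for TACC1.

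In 18 of these genes all arrays of at least 1 day in a breed lay under an intensity of 100, so that the differences above have no true size. With such intensities set to 100, the differences were 2.19 for APOA2, 1.25 for BMP4, -1.80 for CBR1, 2.06 for CBR2, -2.12 for CCL28, -1.01 for CFB, 1.74 for CLDN10, -2.96 for CYP26A1 and 1.35 for GNMT. They were -1.86 for HSD3B1, 2.5 for IL18, -3.22 for MFAP5, 1.24 for MMP7, 1.42 for MUC1, -1.34 for PHGDH, -1.19 for SLC25A37, -1.2 for SLC2A5 and 1.77 for TACC1. Keeping the sign and passing the test with this floor was a condition for these genes to be listed.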

How the results depend on the processing

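Counts of probe sets that rose, fell, rose at least 2-fold and fell at least 2-fold stayed within 1.5 times those reported under other sample sets, filters, scalings and a mean-variance trend, and left-out arrays. With each gene as the mean of its probe sets, which leaves fewer features, the counts were 1113, 1085, 514 and 424. With Bonferroni adjustment they were 463, 313, 463 and 313. Leaving out single arrays gave 1809 to 2211, 2144 to 2631, 1066 to 1105 and 1036 to 1254, and 2495 to 3836 probe sets whose change differed between the breeds. With the replicate number as a block, the counts were 2124, 2536, 1074 and 1118, and 3030 for the breed difference; the numbers did not pair the samples. Of 287 genes that the naming rule or the text names, 259 passed, and 0 of these reversed under any alternative. The 18 that no longer passed under at least 1 alternative were ABCD4, CALD1, CD74, CDH1, CDKN1B, CNN1, DCN, FN1, FOXA2, GAPDH, GNLY, MMP14, PHLDA2, PTN, RARRES2, SLA-2, STARD3 and TAP1. Genes that passed only under an alternative were APOA1, BSG, CALR, CFL1, FTH1, HSD17B10, IGF2, MUC1, TEK and VWF. The cause was not tested.

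Each day is 3 pools of the same 2 gilts, so animals cannot be told apart from days, and the spread between animals was not measured. Probe sets near the lowest values have only a bound on their change. The array annotation left 3859 of the 9028 probe sets without a symbol, among them 20 of the 50 largest rises and 24 of the 50 largest falls.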

Other observations

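The means of the GD50 arrays, which came from other gilts, were set beside the changes between GD15 and GD26. With intensities under 100 set to 100, 880 probe sets rose and 896 fell by at least 1 log2 unit among those called, and the GD50 mean lay nearer to the GD15 than to the GD26 mean in 214 of the first (24.3%) and 79 of the second (8.82%). SULT1E1 had means of 5.71, 11.58 and 2.71 on GD15, GD26 and GD50, so that the estrogen sulfotransferase was at its highest on GD26. HMOX1 went through 5.65, 10.06 and 6.37, the transporter ABCC6 through 5.47, 8.73 and 4.99, and APOA2 through 2.18, 8.84 and 2.18. The cell cycle genes RRM2 and DLGAP5 were at 4.46, 7.54 and 5.10 and at 4.80, 7.63 and 4.96. OAS1 fell from 11.92 to 9.36 and was at 11.24 on GD50. Other genes went on in the same direction: SLC7A9 was at 9.06, 7.07 and 2.59, GSTA1 at 12.59, 9.68 and 5.78, and RAMP1, a receptor activity modifying protein, at 5.25, 7.30 and 10.03. Changes from GD26 to GD50 were not tested, and both differences share the GD26 arrays. Means under an intensity of 100, such as the 5.71 and 2.71 of SULT1E1, have no true size.

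Of 653 genes with several probe sets, 25 had probe sets called in opposite directions. In FOLR1 the brighter probe set fell from 11.43 to 9.49 while the other rose from 2.69 to 11.29. TXNRD1, a thioredoxin reductase, had 1 probe set that fell 2.23-fold and others that rose 1.67-fold and 1.81-fold. CALD1, an actin-binding protein of smooth muscle, fell 1.29-fold on the brighter and rose 4.62-fold on the other, and NPC2, a lysosomal cholesterol carrier, rose 1.97-fold on the brighter and fell 1.34-fold on the other.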
